A study of Bos taurus with 9 samples.

Results

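The genes described here carry out or license DNA replication. The list held 57 genes, chosen by name with earlier results of these data known. Of them, 50 were named on the array, out of 9155 genes that it named in all. MCM2, GINS1, GINS2, MCM10, MCM8, POLE and RFC1 were not named there and are not analysed here. Each gene was read from its probe set of highest mean signal. Messenger RNA was measured on 9 single-colour bovine arrays, with 3 arrays in each of 3 groups. The groups were articular chondrocytes at day 28, mesenchymal stem cells (MSCs, stromal cells of bone marrow that can turn into cartilage, bone and fat) at day 28, and MSCs at day 0. Cells came from Bos taurus calves aged 3 to 6 months, with no genetic change, and each of 3 donors gave 1 sample to every group. All 9 samples were cells seeded in agarose, a gel in which cells are held apart. Both day 28 groups had been kept in chemically defined medium with 10 ng/mL TGF-beta3, a growth factor that induces cartilage formation, for 28 days. The day 0 MSCs were harvested straight after seeding and had no such culture. There was no chondrocyte group at day 0 and no MSC group kept for 28 days without TGF-beta3, so time in culture and TGF-beta3 cannot be told apart, and between chondrocytes and day 0 MSCs neither can be told apart from cell type.

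DNA replication begins at origins, where the origin recognition complex, CDC6 and CDT1 load the MCM helicase onto DNA before S phase. CDC45 and the GINS complex then activate the helicase, primase and the polymerases copy both strands, and the PCNA clamp, placed by replication factor C, keeps the polymerases on DNA. Many of these genes are transcribed by E2F factors as a cell passes from G1 into S phase, while others are transcribed at a steadier level, and articular chondrocytes in adult cartilage seldom divide. In bulk samples such as these, fewer cells in S phase and less RNA of a gene per cell cannot be told apart.

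Some properties of the arrays touch all results below. The bacterial BioC control RNA, added to each array at hybridisation, read 8.43 on the array of chondrocyte donor 3 and 8.35 on that of day 28 MSC donor 3, on a log2 scale, and 11.0 to 11.44 on the other 7 arrays. Counts are therefore given with and without these 2 arrays. The signal of the 3′ end over the 5′ end of bovine control transcripts averaged 1.81 ± 0.19 in chondrocytes, 1.81 ± 0.20 in day 28 MSCs and 1.34 ± 0.23 in day 0 MSCs over 6 transcripts (log2, SD, n = 3 arrays). For actin and GAPDH alone the range was 1.19 to 1.45 in chondrocytes, 1.40 to 1.84 in day 28 MSCs and 1.36 to 1.46 in day 0 MSCs. The part of these differences in the results was not tested. The mean log2 signal of 7 chondrocyte markers was 11.2 to 11.4 in chondrocytes, 10.6 to 11.0 in day 28 MSCs and 5.11 to 5.51 in day 0 MSCs. The mean of 10 blood cell markers was 3.90 to 3.98 in chondrocytes, 3.47 to 3.61 in day 28 MSCs and 3.41 to 4.55 in day 0 MSCs. CD3E, HBB and HBA lay under the 25th percentile of the array's probe sets on all 9 arrays and PTPRC on 8, while the macrophage markers AIF1, TYROBP, CD68 and CTSS were lower in day 28 MSCs than in day 0 MSCs and CSF1R was higher. In chondrocytes against day 28 MSCs, CSF1R was higher (1.60, adjusted p = 0.0269), CTSS was lower (-1.12, 0.00259), and CD14 stood at 2.45 and did not pass (0.0551). Against day 0 MSCs, CD14 was higher in chondrocytes by 2.67 (0.0167), CSF1R was higher, and CTSS, CD68, AIF1 and TYROBP were lower. Of 6 endothelial markers, PECAM1, CDH5, VWF and KDR averaged 1.87 to 2.66 in every group, whereas TEK and ERG were higher in both day 28 groups than in day 0 MSCs. The mean of 8 marrow stromal markers was 5.95 to 6.16 in chondrocytes, 5.72 to 6.20 in day 28 MSCs and 6.83 to 7.75 in day 0 MSCs. Of these, CXCL12 (-4.07, 0.000684), CD44 (-2.22, 0.00127) and NT5E (-0.81, 0.0123) were lower in day 28 than in day 0 MSCs, CXCL12 and CD44 were also lower in chondrocytes than in day 0 MSCs, and NT5E (0.92, 0.0176) and NES (0.87, 0.0218) were higher in chondrocytes than in day 28 MSCs. The part of blood, endothelial or stromal cells in the results was not tested.

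At day 28, replication genes had more RNA in chondrocytes than in MSCs that had spent the same time in the same medium. Of the 50 genes, 30 were higher in chondrocytes, none was lower and 20 did not pass, with calls at an adjusted p under 0.05. By limma's p before adjustment, 2 genes (ORC3 and ORC4) were lower at p under 0.05. Among all named genes, 8.35% were higher and 4.81% were lower. The median difference of the 50 genes was 1.09 on the log2 scale, against -0.02 over all named genes, and 27 of the 30 were at least 2-fold higher. The share of all named genes that passed with a change of at least 2-fold was not counted in any comparison. Without the 2 arrays with low hybridisation controls, 27 of the 50 genes were higher, none was lower and the median was 1.15. The largest log2 differences were those of PCLAF (6.46), RRM2 (5.39) and UHRF1 (5.05).

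In MSCs at day 28, 18 of the replication genes were lower than at day 0 and 27 did not pass, while 21% of all named genes were lower. Another 5 genes, or 10% of the 50, were higher, a share below the 13.5% of all named genes. The median difference was -0.36, against -0.11 over all named genes, and 11 of the 18 lower genes fell at least 2-fold. Without the 2 low arrays, 17 genes were lower, 4 were higher and the median was -0.47. The 5 higher genes were ORC2, ORC3, PRIM1, POLE3 and RFC2, each by less than 2-fold.

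Against day 0 MSCs, chondrocytes at day 28 had higher values of 25 genes and a lower value of RPA1, and 24 genes did not pass. Among all named genes, 15.1% were higher and 20.9% lower. The median difference was 0.55, against -0.12 over all named genes, and 10 of the 25 genes were at least 2-fold higher. Without the 2 low arrays, 22 genes were higher, 1 was lower and the median stayed at 0.55. The 3 comparisons share arrays pair by pair, so their counts are not independent of each other. In all 3 comparisons, each gene that passed had moved the same way in all 3 donors. That is not separate support, since with 3 arrays per group passing already favours such genes.

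**Figure D1:**
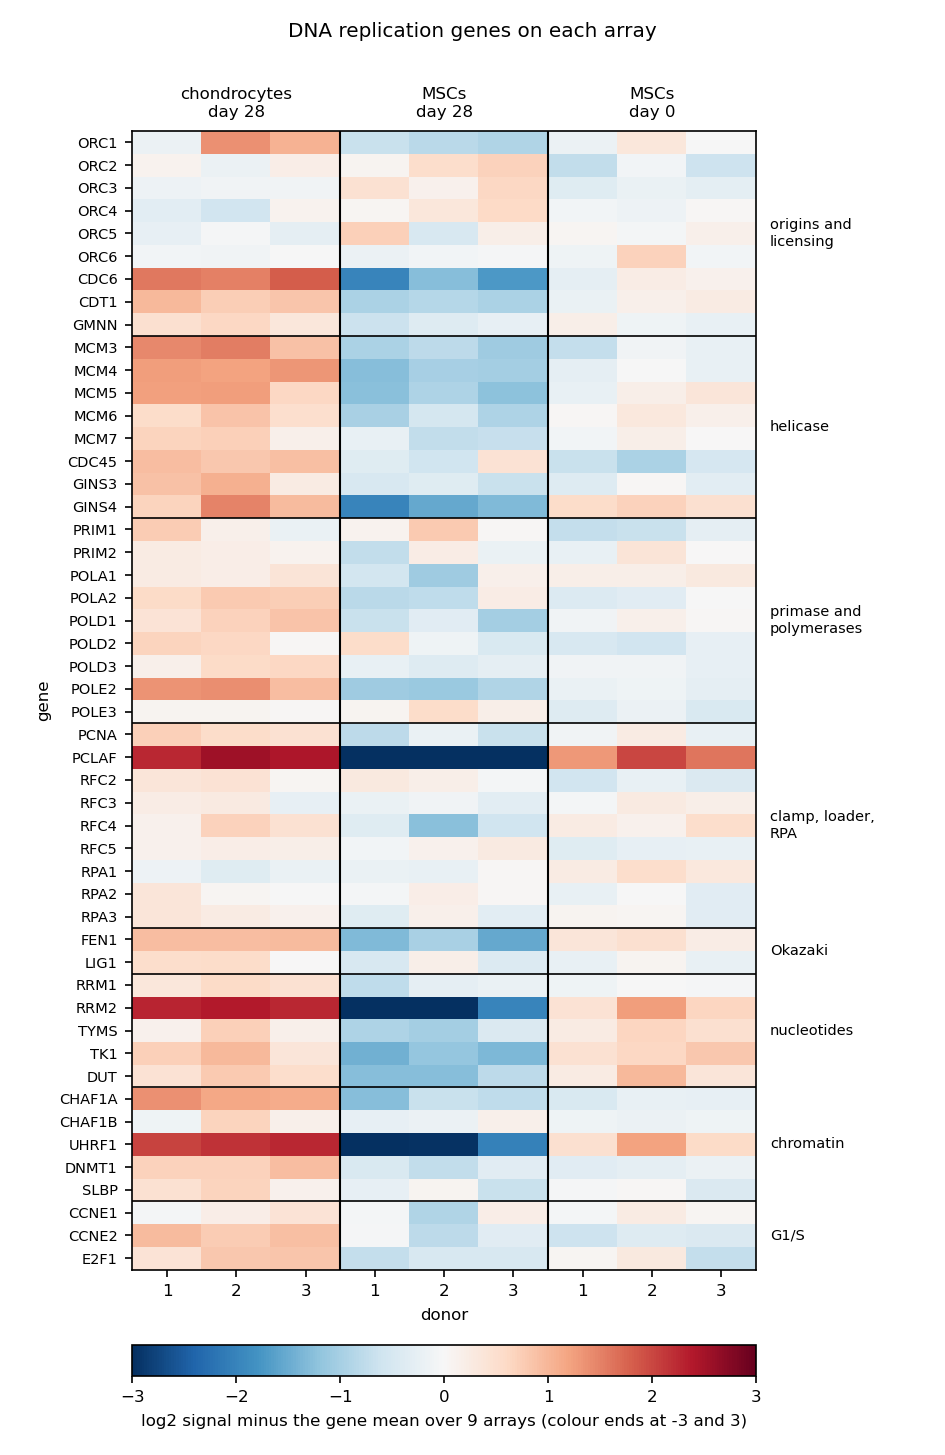
Log2 signal of the 50 replication genes on each of the 9 arrays, as the deviation from each gene's mean over the arrays, with genes in rows grouped by role and arrays in columns by group and donor. The median deviation over the genes is 0.44 to 0.69 on the chondrocyte arrays, -0.52 to -0.42 on the day 28 MSC arrays and -0.12 to 0.07 on the day 0 MSC arrays.

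The deviation of each gene from its own mean, taken per array, restates the differences above without any test and is not separate support for them. Its median over the 50 genes was 0.44, 0.47 and 0.69 on the chondrocyte arrays, -0.52, -0.50 and -0.42 on the day 28 MSC arrays and -0.12, -0.06 and 0.07 on the day 0 MSC arrays. The ranges of the 3 groups did not overlap. Over all named genes the same medians lay between -0.05 and 0.06.

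**Figure D2:**
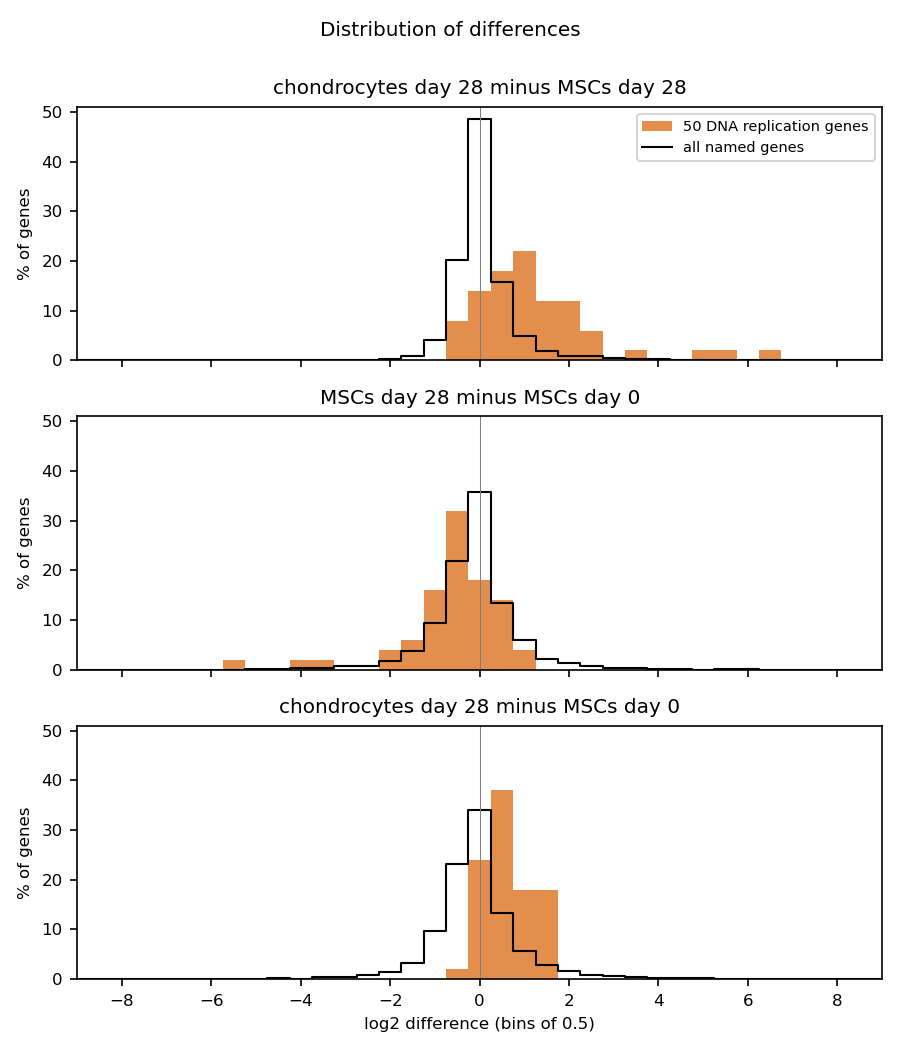
Distribution of log2 differences for the replication genes and for all 9155 named genes in each comparison, as a share of genes per bin of difference. The medians of the replication genes lie at 1.09 for chondrocytes minus day 28 MSCs, -0.36 for day 28 minus day 0 MSCs and 0.55 for chondrocytes minus day 0 MSCs.

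In what follows, array values are log2 signals in the order of donors 1, 2 and 3. Differences are log2 values with the standard error of the limma model, over 3 arrays per group, and each adjusted p is a Benjamini-Hochberg value over every probe set tested. Levels were not compared between genes, since probe sets differ in how strongly they bind.

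Of the 9 genes of origin recognition and licensing, 4 were higher in chondrocytes than in day 28 MSCs, and these were the loaders CDC6 and CDT1, the CDT1 inhibitor GMNN (geminin) and ORC1, the subunit of the origin recognition complex whose amount follows the cell cycle in human cells. CDC6, the ATPase that helps to load the helicase, had 8.17, 8.11 and 8.41 in chondrocytes, 4.61, 5.33 and 4.87 in day 28 MSCs and 6.32, 6.83 and 6.72 in day 0 MSCs. Every chondrocyte array lay above every MSC array, and the day 28 MSC arrays were the lowest. The difference was 3.30 ± 0.21 between chondrocytes and day 28 MSCs (9.82-fold, adjusted p = 3.01e-05), -1.69 ± 0.21 between day 28 and day 0 MSCs (0.000397) and 1.61 ± 0.21 between chondrocytes and day 0 MSCs (0.000529). CDT1 had 6.41, 6.17 and 6.25 in chondrocytes, 4.49, 4.58 and 4.48 in day 28 MSCs and 5.22, 5.59 and 5.67 in day 0 MSCs. The 3 groups again did not overlap, with differences of 1.76 ± 0.15 (adjusted p = 0.000159), -0.98 ± 0.15 (0.00124) and 0.79 ± 0.15 (0.00389) in the same order of comparisons. Over the mean of the CDT1 probe sets these were 0.84 (0.0026), -0.49 (0.0135) and 0.35, which did not pass (0.0536), and the dimmer CDT1 probe set read -0.09 between chondrocytes and day 28 MSCs (0.817). GMNN had 9.42, 9.55 and 9.27 in chondrocytes, 8.29, 8.53 and 8.67 in day 28 MSCs and 9.09, 8.81 and 8.71 in day 0 MSCs. Its groups did not overlap either, and it was higher in chondrocytes than in day 28 MSCs by 0.91 ± 0.16 (adjusted p = 0.00731), while the difference of -0.37 ± 0.16 between day 28 and day 0 MSCs did not pass (0.118).

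ORC1 was higher in chondrocytes than in day 28 MSCs by 1.53 ± 0.35 (adjusted p = 0.023), but its signal lay under the 25th percentile of probe sets on 6 of 9 arrays. The call ended without any 1 of the 3 day 28 MSC arrays or without chondrocyte donor 2 or 3, with values of 1.22 to 1.59 (adjusted p = 0.0518 to 0.0781), and without both low arrays (1.33, 0.128). The other subunits of the origin recognition complex, which marks origins, gave other values. ORC2, ORC3, ORC4, ORC5 and ORC6 differed by -0.59 to 0.03 between chondrocytes and day 28 MSCs, and none of them passed. ORC4 did pass as lower without chondrocyte donor 3 (-0.78, 0.046). ORC2 had 8.36, 8.08 and 8.45 in chondrocytes, 8.32, 8.78 and 8.94 in day 28 MSCs and 7.52, 8.15 and 7.62 in day 0 MSCs. The day 28 MSC arrays lay above the day 0 MSC arrays, by 0.92 ± 0.22 (adjusted p = 0.0124), whereas chondrocytes overlapped both. That call ended without day 0 MSC donor 1 (0.79, adjusted p = 0.0503) and without both low arrays (0.79, 0.0538). It also ended over the mean of the ORC2 probe sets (0.62, 0.0564), and the other ORC2 probe set, dimmer but of larger SD, read 0.32 (0.589). ORC3 had 7.54, 7.59 and 7.59 in chondrocytes, 8.15, 7.83 and 8.32 in day 28 MSCs and 7.32, 7.48 and 7.40 in day 0 MSCs. The groups did not overlap, and day 28 MSCs were the highest of the 3 groups, at 0.70 ± 0.15 over day 0 MSCs (adjusted p = 0.00641). Chondrocytes differed from day 28 MSCs by -0.53 ± 0.15, which did not pass (0.0543) but passed as lower with arrays centred on their medians (-0.59, 0.0339) and without day 28 MSC donor 2 (-0.66, 0.0248).

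All 8 measured genes of the replicative helicase and its activators were higher in chondrocytes than in day 28 MSCs, by 1.06 to 2.65, with a median of 1.81. These were MCM3, MCM4, MCM5, MCM6 and MCM7, which form the helicase ring with MCM2, as well as CDC45, GINS3 and GINS4, which bind the ring when origins fire. MCM4 had 8.45, 8.41 and 8.52 in chondrocytes, 5.91, 6.19 and 6.17 in day 28 MSCs and 6.93, 7.19 and 6.97 in day 0 MSCs. Chondrocytes were higher than day 28 MSCs by 2.37 ± 0.14 (5.18-fold, adjusted p = 1.77e-05) and than day 0 MSCs by 1.43 ± 0.14 (8.75e-05), and day 28 MSCs were lower than day 0 MSCs (-0.94 ± 0.14, 0.00087). MCM3 had 7.67, 7.76 and 7.11 in chondrocytes, 5.27, 5.45 and 5.16 in day 28 MSCs and 5.51, 6.12 and 6.00 in day 0 MSCs. No group overlapped another, and the difference of 2.22 ± 0.22 between chondrocytes and day 28 MSCs passed (adjusted p = 0.000354), while that of -0.59 ± 0.22 between the MSC groups did not (0.0736), except without chondrocyte donor 3 (-0.59, 0.0451) or day 0 MSC donor 1 (-0.77, 0.0353). GINS4 had 4.97, 5.80 and 5.27 in chondrocytes, 2.32, 2.77 and 2.99 in day 28 MSCs and 4.85, 5.01 and 4.79 in day 0 MSCs. The day 28 MSC arrays stood below all others, and 1 of them lay under the 25th percentile of its probe sets, so no fold is given. The log2 difference was 2.65 ± 0.24 for chondrocytes minus day 28 MSCs (adjusted p = 0.000207) and -2.19 ± 0.24 for day 28 minus day 0 MSCs (0.000181). Chondrocytes and day 0 MSCs overlapped in GINS4 and their difference of 0.46 ± 0.24 did not pass (0.175).

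MCM5 and MCM6 were higher in chondrocytes than in day 28 MSCs by 2.17 ± 0.22 and 1.44 ± 0.17 (adjusted p = 0.000404 and 0.000976) and lower in day 28 than in day 0 MSCs, at -1.24 ± 0.22 and -0.97 ± 0.17 (0.00252 and 0.00238). MCM7 was higher in chondrocytes than in day 28 MSCs by 1.06 ± 0.20 (0.00981). Its difference of -0.58 ± 0.20 between the MSC groups did not pass (0.0525), but it passed as lower in 8 of 23 alternatives. CDC45 had 6.61, 6.48 and 6.59 in chondrocytes, 5.32, 5.08 and 6.11 in day 28 MSCs and 5.02, 4.72 and 5.19 in day 0 MSCs. The MSC groups overlapped (0.53 ± 0.25, adjusted p = 0.152), and day 28 MSC donor 3, 1 of the 2 arrays with low controls, was the highest of the 6. Chondrocytes were higher than day 28 MSCs in CDC45 by 1.06 ± 0.25 (0.0282). That call ended without any 1 of the chondrocyte arrays or without day 28 MSC donor 1 or 2, at 0.85 to 1.10 (adjusted p = 0.0744 to 0.0866). GINS3 was higher in chondrocytes than in day 28 MSCs by 1.23 ± 0.23 (0.00887), and its difference of -0.28 ± 0.23 between the MSC groups did not pass (0.399). Against day 0 MSCs, 5 of the 8 were higher in chondrocytes, namely MCM3, MCM4, MCM5, CDC45 and GINS3.

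**Figure D3:**
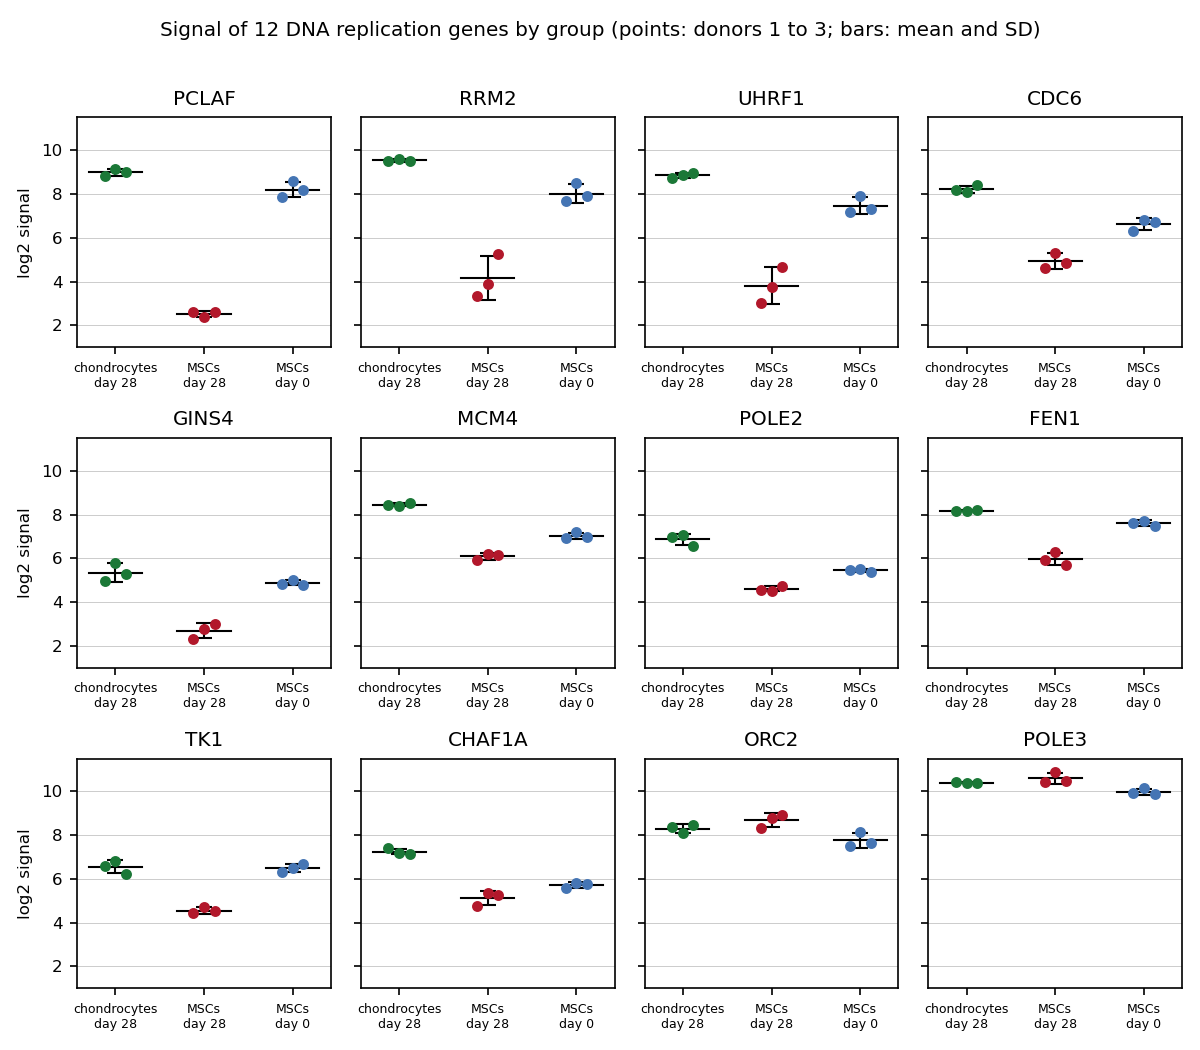
Log2 signal of 12 replication genes on each array, with groups on the horizontal axis, points for the 3 donors and bars for the mean and SD. PCLAF, RRM2, UHRF1 and CDC6 are highest in chondrocytes and lowest in day 28 MSCs, TK1 overlaps between chondrocytes and day 0 MSCs, and ORC2 and POLE3 are higher in day 28 than in day 0 MSCs.

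Of the 9 genes of primase and the replicative polymerases, 4 were higher in chondrocytes than in day 28 MSCs, namely POLE2, POLD1, POLA2 and POLD3. POLE2, the subunit of the leading-strand polymerase epsilon that binds its catalytic subunit, had 6.99, 7.05 and 6.57 in chondrocytes, 4.57, 4.52 and 4.74 in day 28 MSCs and 5.45, 5.51 and 5.38 in day 0 MSCs. The groups did not overlap, and the differences were 2.26 ± 0.16 between chondrocytes and day 28 MSCs (4.78-fold, adjusted p = 4.65e-05), -0.84 ± 0.16 between the MSC groups (0.00328) and 1.42 ± 0.16 between chondrocytes and day 0 MSCs (0.000187). POLD1, the catalytic subunit of the lagging-strand polymerase delta, had 5.95, 6.23 and 6.41 in chondrocytes, 4.88, 5.20 and 4.52 in day 28 MSCs and 5.44, 5.69 and 5.58 in day 0 MSCs. Its groups were likewise apart, by 1.33 ± 0.20 (adjusted p = 0.00302) between chondrocytes and day 28 MSCs and by -0.71 ± 0.20 (0.0231) between the MSC groups. The second of these calls ended without 1 of 4 MSC arrays (day 28 donor 1 or 3, day 0 donor 2 or 3), at -0.71 to -0.53 (adjusted p = 0.052 to 0.073). POLD3, an accessory subunit of polymerase delta, had 7.60, 8.02 and 8.07 in chondrocytes, 7.22, 7.06 and 7.18 in day 28 MSCs and 7.35, 7.35 and 7.21 in day 0 MSCs. Chondrocytes lay above both MSC groups, which overlapped, and were higher than day 28 MSCs by 0.74 ± 0.15 (0.0154). That call ended without chondrocyte donor 2 or 3 or without day 28 MSC donor 2 (0.65 to 0.70, adjusted p = 0.0519 to 0.0664) and without both low arrays (0.67, 0.0811), and over the mean of its probe sets it stood at 0.38 (0.217).

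POLE3 and PRIM1 went another way. POLE3, a histone-fold subunit of polymerase epsilon that also belongs to a chromatin remodelling complex, had 10.40, 10.39 and 10.37 in chondrocytes, 10.41, 10.86 and 10.49 in day 28 MSCs and 9.93, 10.14 and 9.87 in day 0 MSCs. Both day 28 groups lay above day 0 MSCs, and the difference of 0.61 ± 0.15 between the MSC groups passed (adjusted p = 0.0145), except without day 0 MSC donor 3 (0.55, 0.0502). PRIM1, the catalytic subunit of primase, had 4.32, 3.70 and 3.37 in chondrocytes, 3.67, 4.35 and 3.60 in day 28 MSCs and 2.84, 2.89 and 3.30 in day 0 MSCs. The day 28 groups overlapped, and day 28 MSCs were above day 0 MSCs by 0.86 ± 0.28 (0.0453). That call ended without 1 of 5 arrays (chondrocyte donor 2, day 28 MSC donor 1 or 2, day 0 MSC donor 1 or 2), at 0.62 to 0.96 (adjusted p = 0.0602 to 0.14), with arrays centred on their medians (0.81, 0.0634) and with the donor as a block (0.0584). POLA2, the regulatory subunit of polymerase alpha, was higher in chondrocytes than in day 28 MSCs by 1.15 ± 0.26 (0.0236), a call that ended without any 1 chondrocyte array or day 28 MSC donor 1 or 2 (0.97 to 1.22, 0.0545 to 0.0847), over the mean of its probe sets (0.64, 0.0604) and in a fit of the 2 groups alone (0.0587). POLA1, the catalytic subunit of polymerase alpha, was lower on each day 28 MSC array than on all others, but the difference of 0.77 ± 0.26 between chondrocytes and day 28 MSCs did not pass (0.0957), and it passed without both low arrays (1.03, 0.0233). PRIM2 and POLD2 differed between the day 28 groups by 0.43 ± 0.25 and 0.46 ± 0.27 (0.334 and 0.355).

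The clamp and its partners ranged from -0.11 to 6.46 between chondrocytes and day 28 MSCs, and 3 of the 9 were higher. PCLAF, a small protein that binds the PCNA clamp, had 8.84, 9.13 and 9.01 in chondrocytes, 2.63, 2.37 and 2.60 in day 28 MSCs and 7.87, 8.58 and 8.17 in day 0 MSCs. The day 28 MSC values lay beside the 25th percentile of all probe sets on those arrays (2.49 to 2.53), and 1 of them was below it. With no detection calls in use, that level was not shown to be above background, and no fold is given for PCLAF. On the log2 signal scale, chondrocytes were higher than day 28 MSCs by 6.46 ± 0.19 (adjusted p = 1.07e-06), day 28 MSCs were lower than day 0 MSCs (-5.68 ± 0.19, 3.07e-07), and chondrocytes exceeded day 0 MSCs by 0.79 ± 0.19 (0.0126). PCNA itself, the sliding clamp, had 9.76, 9.58 and 9.51 in chondrocytes, 8.26, 8.83 and 8.38 in day 28 MSCs and 8.93, 9.29 and 8.81 in day 0 MSCs. Chondrocytes stood above both MSC groups, by 1.12 ± 0.19 over day 28 MSCs (0.00618), and the MSC groups overlapped. The difference between the MSC groups was -0.52 ± 0.19 and did not pass (0.0682), but it passed as lower with the donor as a block (-0.52, 0.0463), with arrays centred on their medians (-0.58, 0.0464) and without day 28 MSC donor 2 (-0.69, 0.0234).

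Replication factor C is the loader that opens and closes the clamp. Of its measured subunits, RFC4 alone passed between the day 28 groups. A difference between the subunits was not tested. RFC4 had 8.31, 8.88 and 8.65 in chondrocytes, 7.81, 6.93 and 7.59 in day 28 MSCs and 8.43, 8.31 and 8.71 in day 0 MSCs. The day 28 MSC arrays were the lowest, at 1.17 ± 0.25 under chondrocytes (adjusted p = 0.017) and -1.04 ± 0.25 from day 0 MSCs (0.011), while chondrocytes and day 0 MSCs overlapped. The difference between chondrocytes and day 28 MSCs did not pass without chondrocyte donor 2 or 3 (1.03 to 1.15, adjusted p = 0.0508 to 0.0717) or without both low arrays (1.22, 0.0684). RFC2 had 8.15, 8.23 and 7.84 in chondrocytes, 8.09, 7.96 and 7.74 in day 28 MSCs and 7.21, 7.56 and 7.36 in day 0 MSCs. The day 28 groups overlapped (0.15 ± 0.16, 0.673), and both lay above day 0 MSCs, by 0.70 ± 0.16 for chondrocytes (0.0108) and 0.55 ± 0.16 for MSCs (0.0309). The value for MSCs did not pass without 1 of 4 MSC arrays (day 28 donor 1 or 2, day 0 donor 1 or 3), at 0.47 to 0.54 (0.0759 to 0.106), or with arrays centred on their medians (0.50, 0.0572). RFC3 and RFC5 differed by 0.28 ± 0.17 and 0.06 ± 0.13 between the day 28 groups (0.368 and 0.854). Between the MSC groups, RFC5 read 0.38 ± 0.13 (0.0551) from this probe set and -0.60 ± 0.20 (0.05002) from its dimmer one, and neither passed.

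Replication protein A, the trimer that coats single-stranded DNA, held the 1 gene that was lower in chondrocytes than in day 0 MSCs. RPA1, its large subunit, had 9.97, 9.75 and 9.92 in chondrocytes, 9.93, 9.89 and 10.16 in day 28 MSCs and 10.37, 10.64 and 10.43 in day 0 MSCs. Both day 28 groups lay below day 0 MSCs and overlapped each other. The differences from day 0 MSCs were -0.60 ± 0.14 for chondrocytes (adjusted p = 0.0108) and -0.49 ± 0.14 for day 28 MSCs (0.0272). With arrays centred on ribosomal protein genes the value for chondrocytes was -0.40 and did not pass (0.0713). The value for day 28 MSCs did not pass without 1 of 4 MSC arrays (day 28 donor 1 or 2, day 0 donor 2 or 3), at -0.51 to -0.41 (0.0534 to 0.0878). RPA2 and RPA3, the smaller subunits, passed in none of the 3 comparisons, with differences of -0.11 to 0.42.

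Of the pair that joins Okazaki fragments, the short pieces of the lagging strand, 1 gene passed. FEN1, the flap endonuclease that trims the fragments, had 8.18, 8.18 and 8.20 in chondrocytes, 5.93, 6.27 and 5.71 in day 28 MSCs and 7.62, 7.73 and 7.49 in day 0 MSCs. Its groups did not overlap, and the differences were 2.21 ± 0.16 (4.64-fold, adjusted p = 6.4e-05) between chondrocytes and day 28 MSCs, -1.64 ± 0.16 (0.000105) between the MSC groups and 0.57 ± 0.16 (0.0233) between chondrocytes and day 0 MSCs. LIG1, the ligase that seals them, had 6.48, 6.50 and 5.97 in chondrocytes, 5.46, 6.12 and 5.53 in day 28 MSCs and 5.72, 6.02 and 5.73 in day 0 MSCs. All groups overlapped in LIG1, and the difference of 0.61 ± 0.22 between the day 28 groups did not pass (0.118) except with arrays centred on ribosomal protein genes (0.78, 0.0396) or without day 28 MSC donor 2 (0.82, 0.0487).

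All 5 genes of deoxynucleotide supply were higher in chondrocytes than in day 28 MSCs, and 4 of them were at least 2-fold lower in day 28 than in day 0 MSCs. RRM2, the small subunit of ribonucleotide reductase, which makes deoxynucleotides, had 9.53, 9.62 and 9.50 in chondrocytes, 3.33, 3.90 and 5.26 in day 28 MSCs and 7.68, 8.49 and 7.89 in day 0 MSCs. The day 28 MSC arrays spread widely, with donor 3 (an array with low controls) the highest, but lay below all others. With no detection calls in use, the day 28 MSC level of RRM2 was not shown to be above background. The differences were 5.39 ± 0.43 between chondrocytes and day 28 MSCs (41.8-fold, adjusted p = 0.000107), -3.86 ± 0.43 between the MSC groups (14.5-fold lower, 0.000197) and 1.53 ± 0.43 between chondrocytes and day 0 MSCs (0.0232). TK1, the thymidine kinase of the salvage pathway, had 6.59, 6.83 and 6.23 in chondrocytes, 4.42, 4.71 and 4.51 in day 28 MSCs and 6.32, 6.49 and 6.68 in day 0 MSCs. Chondrocytes and day 0 MSCs overlapped in TK1, at 0.05 with a 95% interval of -0.36 to 0.46, whereas chondrocytes were 4-fold higher than day 28 MSCs (2.00 ± 0.18, 0.000225) and day 28 MSCs 3.86-fold lower than day 0 MSCs (-1.95 ± 0.18, 8.65e-05). DUT, which removes dUTP, had 9.55, 9.91 and 9.64 in chondrocytes, 7.85, 7.85 and 8.33 in day 28 MSCs and 9.37, 10.08 and 9.48 in day 0 MSCs. Its day 28 MSC arrays were again below all others, with 1.69 ± 0.22 for chondrocytes minus day 28 MSCs (0.00178) and -1.64 ± 0.22 for day 28 minus day 0 MSCs (0.000625), and chondrocytes differed from day 0 MSCs by 0.06 with an interval of -0.45 to 0.56.

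TYMS, thymidylate synthase, was higher in chondrocytes than in day 28 MSCs by 1.12 ± 0.22 (adjusted p = 0.012) and lower in day 28 than in day 0 MSCs (-1.25 ± 0.22, 0.00231). Its difference of -0.13 between chondrocytes and day 0 MSCs had an interval of -0.62 to 0.36. The other TYMS probe set read -0.69 there, with an interval of -1.27 to -0.12, and did not pass (0.0689). Between the MSC groups that probe set read -2.01 (0.000423). RRM1, the large subunit of ribonucleotide reductase, was higher in chondrocytes than in day 28 MSCs by 0.87 ± 0.17 (0.011), except without chondrocyte donor 2 (0.81, 0.0504), and its difference of -0.35 ± 0.17 between the MSC groups did not pass (0.151).

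**Figure D4:**
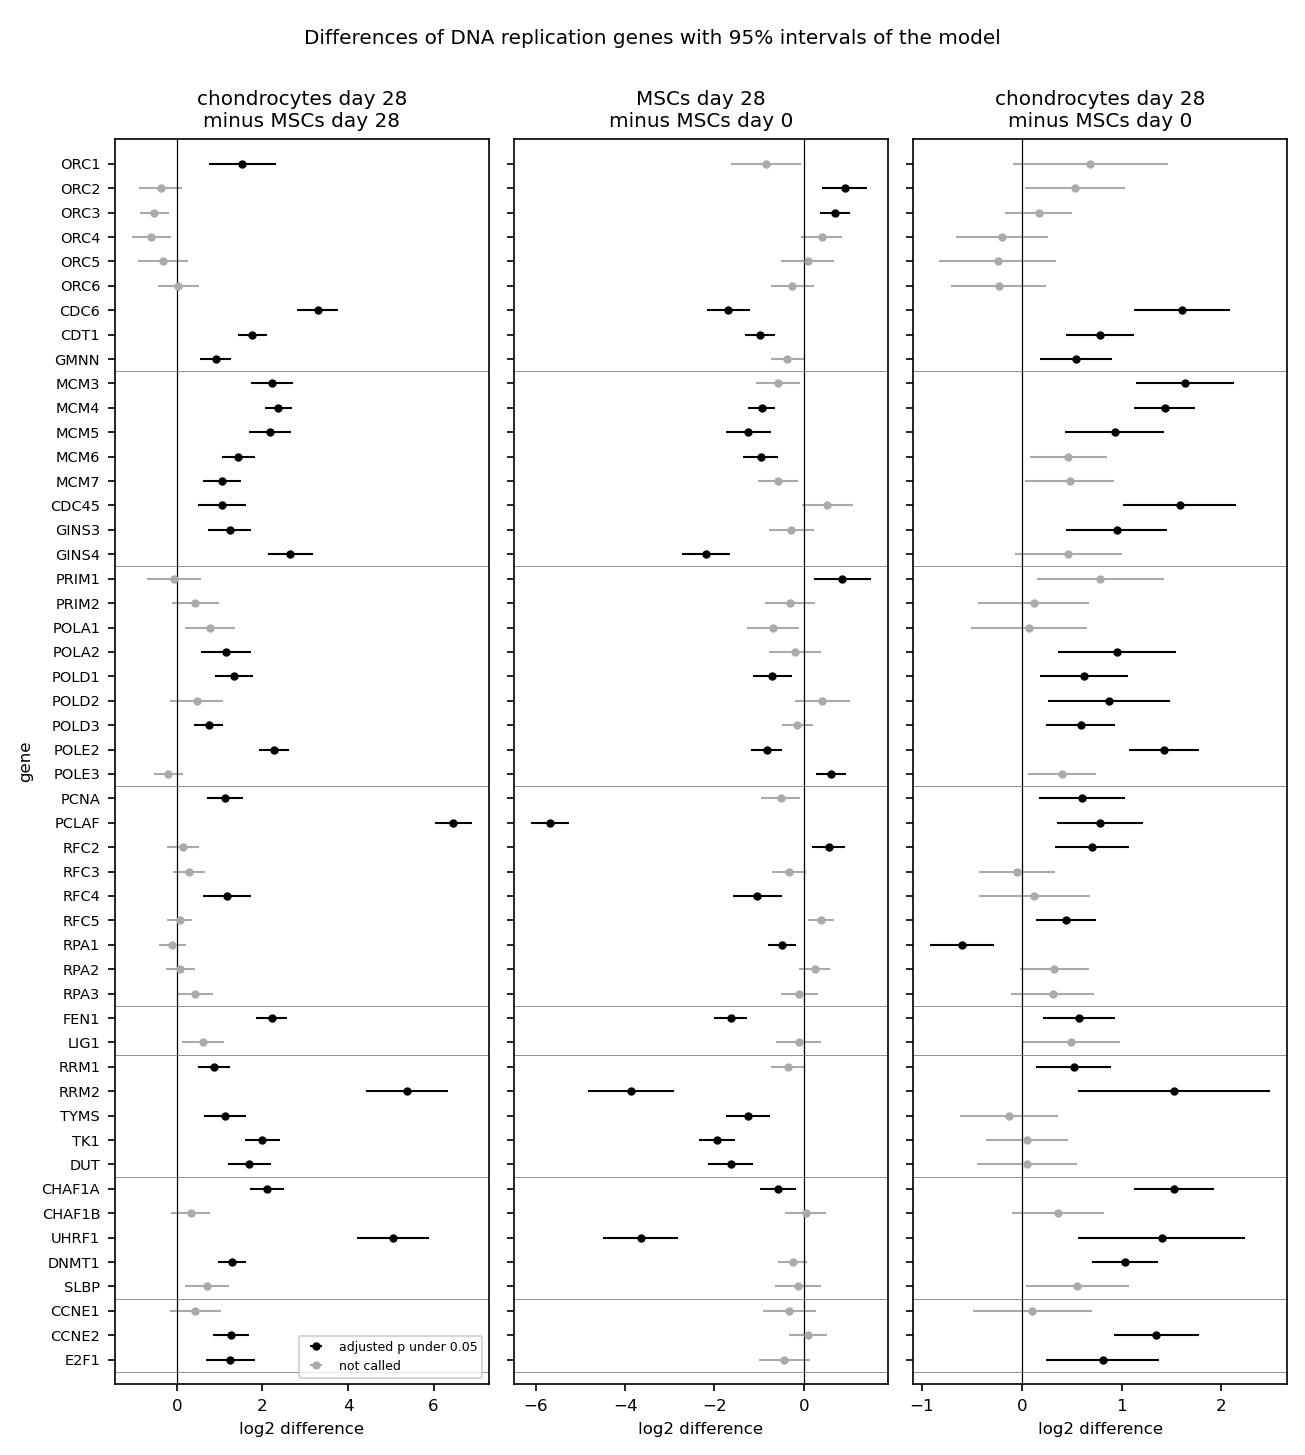
Log2 difference of each replication gene in the 3 comparisons, with 95% intervals, genes in rows grouped by role, black for an adjusted p under 0.05 and grey otherwise. Between chondrocytes and day 28 MSCs 30 intervals are black and all of them lie to the right of 0, and RPA1 is the 1 black interval left of 0 between chondrocytes and day 0 MSCs.

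Of the 5 genes that copy chromatin and DNA methylation, 3 were higher in chondrocytes than in day 28 MSCs. UHRF1, which reads hemimethylated DNA behind the fork, had 8.75, 8.88 and 8.97 in chondrocytes, 3.02, 3.75 and 4.69 in day 28 MSCs and 7.19, 7.91 and 7.30 in day 0 MSCs. The groups did not overlap, and within day 28 MSCs donor 1 was the lowest and donor 3 the highest. The differences were 5.05 ± 0.37 between chondrocytes and day 28 MSCs (33.2-fold, adjusted p = 7.09e-05), -3.65 ± 0.37 between the MSC groups (12.6-fold lower, 0.000132) and 1.40 ± 0.37 between chondrocytes and day 0 MSCs (0.0188). The dimmer UHRF1 probe set read 1.15 (0.024), -0.70 (0.0736) and 0.45 (0.237) in the same order, and only the first of these passed. Over the mean of the UHRF1 probe sets the values were 3.10 (0.000247), -2.18 (0.000517) and 0.92 (0.0364). With no detection calls in use, the day 28 MSC level of UHRF1 was not shown to be above background. DNMT1, the maintenance methyltransferase that UHRF1 recruits, had 6.76, 6.76 and 6.99 in chondrocytes, 5.59, 5.32 and 5.72 in day 28 MSCs and 5.72, 5.78 and 5.90 in day 0 MSCs. Chondrocytes lay above both MSC groups, by 1.29 ± 0.15 over day 28 MSCs (0.000794) and 1.03 ± 0.15 over day 0 MSCs (0.000775), and the MSC groups did not differ past the threshold (-0.25 ± 0.15, 0.236). CHAF1A, the large subunit of the histone chaperone CAF-1, had 7.39, 7.18 and 7.15 in chondrocytes, 4.77, 5.36 and 5.27 in day 28 MSCs and 5.58, 5.80 and 5.78 in day 0 MSCs. Chondrocytes were higher than day 28 MSCs by 2.11 ± 0.18 (4.32-fold, 0.000151) and than day 0 MSCs by 1.52 ± 0.18 (0.000261).

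Day 28 MSCs were lower than day 0 MSCs in CHAF1A (-0.59 ± 0.18, adjusted p = 0.0329). That call ended without day 28 MSC donor 1 or day 0 MSC donor 2 or 3 (-0.56 to -0.40, 0.0819 to 0.0924), without both low arrays (-0.66, 0.0559) and under cyclic loess (-0.55, 0.0503). CHAF1B, the middle subunit of CAF-1, differed between the day 28 groups by 0.32 ± 0.20 (0.397), and SLBP, which binds histone messenger RNA, by 0.70 ± 0.23 (0.0909). The SLBP difference passed with the donor as a block (0.0133).

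The genes of G1/S control comprised CCNE1 and CCNE2, the E cyclins that activate CDK2, and E2F1, an activator of S phase transcription. CCNE2 had 6.43, 6.25 and 6.40 in chondrocytes, 5.45, 4.72 and 5.15 in day 28 MSCs and 4.87, 5.11 and 5.06 in day 0 MSCs. Chondrocytes lay above both MSC groups, by 1.26 ± 0.19 over day 28 MSCs (adjusted p = 0.00326) and 1.35 ± 0.19 over day 0 MSCs (0.000711), and the MSC groups overlapped (0.09 ± 0.19, 0.763). CCNE1 had 5.87, 6.12 and 6.34 in chondrocytes, 5.88, 5.04 and 6.12 in day 28 MSCs and 5.86, 6.17 and 5.99 in day 0 MSCs. All 3 groups overlapped in CCNE1, and no difference passed (0.43 ± 0.26, 0.378 between the day 28 groups). E2F1 had 3.40, 3.80 and 3.82 in chondrocytes, 2.27, 2.51 and 2.50 in day 28 MSCs and 3.05, 3.27 and 2.27 in day 0 MSCs. Chondrocytes were highest, at 1.25 ± 0.25 over day 28 MSCs (0.014), but 3 of the 6 MSC arrays lay under the 25th percentile of probe sets. That call ended without chondrocyte donor 2 (1.18, 0.059) and without both low arrays (1.21, 0.0737).

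How firmly each comparison stood differed. Between chondrocytes and day 28 MSCs, 23 of 30 calls held without any 1 of the 9 arrays, and the 7 that did not were those of ORC1, CDC45, POLA2, POLD3, RFC4, RRM1 and E2F1. Leaving out chondrocyte donor 2 ended all 7. Leaving out all 3 arrays of a donor left 18 genes higher without donor 1 and 19 without donor 2. Between day 28 and day 0 MSCs, 16 of 23 calls held, and those of ORC2, PRIM1, POLD1, POLE3, RFC2, RPA1 and CHAF1A did not. The 5 higher genes came to 0, 2 and 1 without donors 1, 2 and 3. Between chondrocytes and day 0 MSCs, 14 of 26 calls held and 12 did not, namely GMNN, POLA2, POLD1, POLD2, POLD3, PCNA, RFC5, FEN1, RRM1, RRM2, UHRF1 and E2F1. Leaving out chondrocyte donor 2 ended all 12 of these, day 0 MSC donor 3 ended 11, and day 0 MSC donor 1 and chondrocyte donor 3 ended 10 each. Without donor 1, 10 genes passed in this comparison, and without donor 2, 12. Without 1 array, RRM2 stood at 1.36 to 1.55 (adjusted p = 0.0567 to 0.0823), UHRF1 at 1.26 to 1.40 (0.0506 to 0.0687), FEN1 at 0.51 to 0.58 (0.0579 to 0.0734) and PCNA at 0.50 to 0.65 (0.0657 to 0.125) where they did not pass. GMNN then stood at 0.46 to 0.54 (0.0789 to 0.0973), POLD1 at 0.52 to 0.69 (0.0524 to 0.121), POLD2 at 0.76 to 0.97 (0.0534 to 0.12), RFC5 at 0.40 to 0.47 (0.0556 to 0.0969) and RRM1 at 0.46 to 0.58 (0.0637 to 0.12). POLA2 was at 0.87 to 0.93 (0.0621 to 0.0747), POLD3 at 0.50 to 0.54 (0.0539 to 0.0615) and E2F1 at 0.52 to 0.90 (0.057 to 0.105).

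Of the 50 genes, 18 had more than 1 probe set. The other 21 probe sets were dimmer by the rule that chose the members, and 16 of them lay under the median signal of all probe sets. Of the 5 at or above that median, 3 were higher in chondrocytes than in day 28 MSCs, against 2 of the 16 under it. The 3 belonged to MCM6 (1.16 ± 0.22, adjusted p = 0.00977), TYMS (1.32 ± 0.26, 0.0117) and DUT (1.47 ± 0.24, 0.0053). The 2 dim ones belonged to CDC6 (1.15 ± 0.17, 0.00281) and UHRF1 (1.15 ± 0.26, 0.024), where the brighter probe sets gave 3.30 and 5.05. Between day 28 and day 0 MSCs, 3 of the 5 and 1 of the 16 were lower, and none was higher. Between chondrocytes and day 0 MSCs, none of the 5 passed, at a median of -0.43, and of the 16, 1 was higher and 1 lower. The median of all 21 was -0.14 there, against 0.55 for the members' own probe sets. Over the mean of a gene's probe sets, values between chondrocytes and day 28 MSCs were smaller by over 1.5 times for UHRF1 (3.10), MCM3 (1.11), CDT1 (0.84), POLA2 (0.64) and POLD3 (0.38), of which POLA2 and POLD3 no longer passed. Of the members' own probe sets, ORC1 alone fell under the 25th percentile of mean signal, and 45 lay at or above the median, with ORC1, GINS4, PRIM1, CHAF1B and E2F1 below it.

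Genes that work beside the members were read from 6 further lists. Among all named genes, 8.35% were higher and 4.81% lower in chondrocytes than in day 28 MSCs. The shares were 13.5% higher and 21% lower in day 28 against day 0 MSCs. In chondrocytes against day 0 MSCs they were 15.1% higher and 20.9% lower. Several counts of the further lists lie near these shares or below them and are not read as results about the lists. In day 28 against day 0 MSCs they include the higher cyclin, CDK and E2F partners (14.3%) and nucleotide supply genes (11.1%). In chondrocytes against day 0 MSCs they include the lower fork and firing (14.3%), chromatin (16.7%) and cyclin list genes (14.3%). The higher nucleotide supply genes (11.1%) are also among them there. Of 14 other replication fork and origin firing genes, 3 were higher in chondrocytes than in day 28 MSCs and none was lower by limma, also before adjustment (0 of 14 at p under 0.05, median 0.36). CHTF18, part of an alternative clamp loader, was higher by 2.79 ± 0.17 (6.92-fold, adjusted p = 2.05e-05), and BRCA1, a recombination and fork protection gene, by 1.34 ± 0.23 (0.00723). In day 28 against day 0 MSCs 5 of the 14 were lower, with CHTF18 at -0.76 ± 0.17 (0.00745) and RNASEH2B, a subunit of ribonuclease H2, at -1.37 ± 0.17 (0.000383). In chondrocytes against day 0 MSCs 3 were higher, with CHTF18 at 2.03 ± 0.17 (3.93e-05) and DONSON, which acts in origin firing, at 0.93 ± 0.23 (0.0126), and 2 were lower. Of 6 other S phase chromatin genes, ASF1B, a histone chaperone, was higher in chondrocytes than in day 28 MSCs by 3.65 ± 0.39 (12.5-fold, 0.000528), and H2AX, a histone variant, read 0.94 ± 0.33 and did not pass (0.115). Both fell in day 28 against day 0 MSCs, by 1.85 and 1.75 on the log2 scale (0.00605 and 0.00368), as did 1 more of the 6. Against day 0 MSCs, chondrocytes were higher in ASF1B by 1.80 ± 0.39 (0.00713) and lower in its paralogue ASF1A (-0.64 ± 0.13, 0.00602).

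Of 9 other nucleotide supply genes, 2 were higher in chondrocytes than in day 28 MSCs, DTYMK, the thymidylate kinase, by 2.55 ± 0.32 (5.87-fold, adjusted p = 0.00129) and DCTPP1, a dCTP pyrophosphatase, by 1.65 ± 0.16 (0.0003). In day 28 against day 0 MSCs 5 of the 9 were lower and 1 higher, with DTYMK at -2.30 ± 0.32 (0.000682) and DCTPP1 at -1.68 ± 0.16 (9.08e-05). Against day 0 MSCs, chondrocytes were lower in 3, among them the purine enzyme PAICS at -1.24 ± 0.25 (0.00517) and the CTP synthase CTPS1 at -1.17 ± 0.21 (0.00313), and higher in 1. Of 14 cyclin, CDK and E2F partner genes, 5 were higher in chondrocytes than in day 28 MSCs, 2 were higher and 6 lower in day 28 than in day 0 MSCs, and 5 were higher and 2 lower in chondrocytes than in day 0 MSCs. CCNA2, the S phase cyclin, was higher in chondrocytes than in day 28 MSCs by 4.07 ± 0.32 (16.8-fold, 0.000105), MYBL2, a cell cycle transcription factor, by 1.32 ± 0.21 (0.00496), and CCNA2 was lower in day 28 than in day 0 MSCs (-2.88 ± 0.32, 0.000208). The G1 cyclins CCND3 and CCND1 went opposite ways. CCND3 was higher in both day 28 groups than in day 0 MSCs (1.98 ± 0.20, 0.00011 for chondrocytes and 2.64 ± 0.20, 2.65e-05 for MSCs), and CCND1 was lower (-1.48 ± 0.22, 0.00113 and -1.07 ± 0.22, 0.006).

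Of 8 cell cycle inhibitor and pocket protein genes, 1 was lower in chondrocytes than in day 28 MSCs and none was higher by limma (2 were at p under 0.05 before adjustment). The lower gene was CDKN1A, the CDK inhibitor p21, which had 11.10, 11.42 and 11.23 in chondrocytes, 12.17, 11.98 and 12.10 in day 28 MSCs and 11.22, 10.76 and 11.31 in day 0 MSCs. The day 28 MSC arrays were above all others, with chondrocytes at -0.83 ± 0.17 from them (adjusted p = 0.0157) and day 28 MSCs at 0.99 ± 0.17 over day 0 MSCs (0.00234). In day 28 against day 0 MSCs 4 of the 8 were higher and 1 lower, and BTG1, an antiproliferative gene, was higher by 0.84 ± 0.12 (0.000878). Against day 0 MSCs, chondrocytes were higher in 2, which were CDKN1C, the CDK inhibitor p57, at 2.84 ± 0.31 (7.17-fold, 0.000198) and BTG1 at 0.71 ± 0.12 (0.00227), and lower in 1. CDKN1C differed between chondrocytes and day 28 MSCs by 1.05 ± 0.31, which did not pass (0.068).

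Genes of mitosis, the phase that follows replication, moved in the same directions as most members that passed. Of 16, 15 were higher in chondrocytes than in day 28 MSCs with a median of 4.02, 14 were lower in day 28 than in day 0 MSCs with a median of -2.43, and 13 were higher in chondrocytes than in day 0 MSCs with a median of 1.52. CCNB1, the mitotic cyclin, had 8.38, 9.18 and 8.60 in chondrocytes, 3.32, 3.52 and 4.28 in day 28 MSCs and 7.14, 7.60 and 7.33 in day 0 MSCs. Its groups did not overlap, at 32.2-fold between chondrocytes and day 28 MSCs. With no detection calls in use, the day 28 MSC level of CCNB1 was not shown to be above background. AURKB, the kinase of chromosome segregation, had 6.86, 7.34 and 7.41 in chondrocytes, 2.12, 2.34 and 3.14 in day 28 MSCs and 5.90, 6.29 and 5.90 in day 0 MSCs, and again the groups were apart. Its values for day 28 MSC donors 1 and 2 lay under the 25th percentile of probe sets on those arrays (2.53 and 2.49). PLK1, a kinase of mitotic entry, and CENPF, a kinetochore protein, were higher in chondrocytes than in day 0 MSCs by 1.50 ± 0.21 (adjusted p = 0.000765) and 1.77 ± 0.36 (0.00529). A difference between the mitosis list and the replication genes was not tested.

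**Figure D5:**
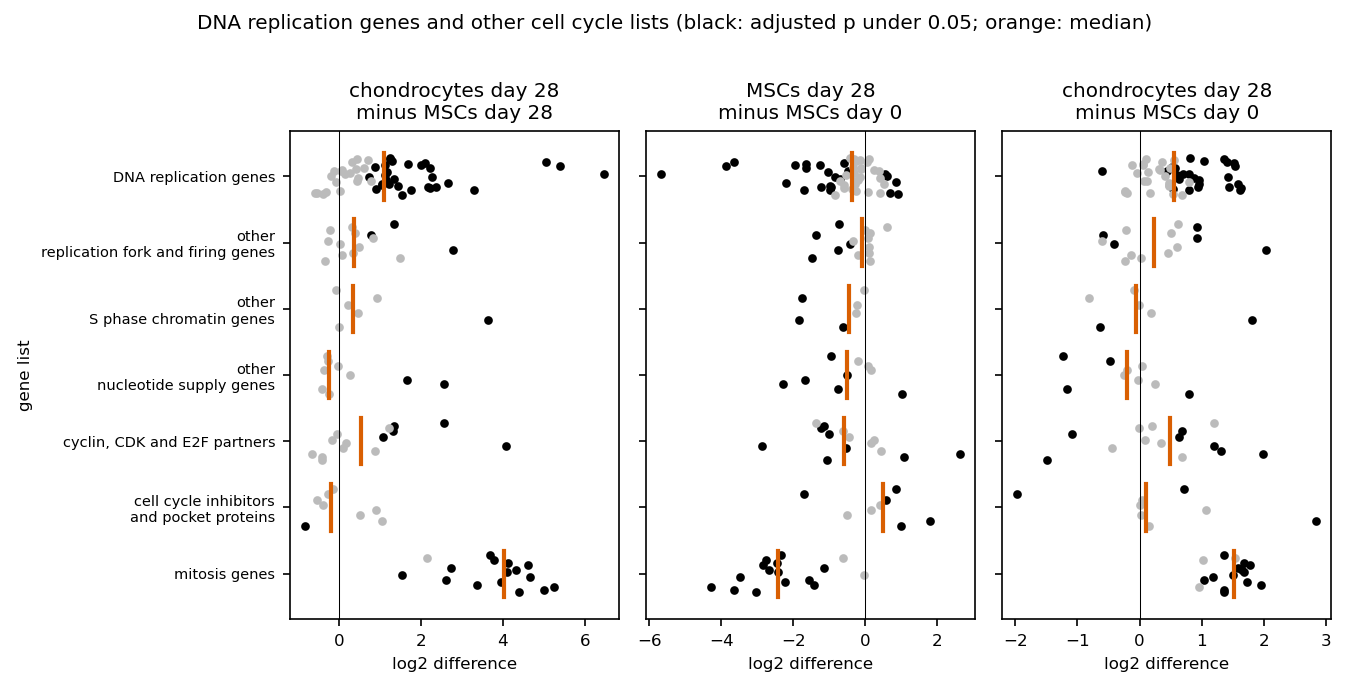
Log2 difference of each gene in the 50 replication genes and in the 6 further lists for each comparison, with lists in rows, points for genes (black for an adjusted p under 0.05, grey otherwise) and orange bars for the median of a list. Between chondrocytes and day 28 MSCs the median is 1.09 for the replication genes and 4.02 for the mitosis genes, of which 15 of 16 passed.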

How the data were processed

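RNA of 9 samples was measured on 1 array each. Per the labels' protocols, total RNA was primed with poly(T) and amplified. The deposited log2 values were made with RMA, which corrects background, quantile-normalizes arrays and summarises probes, per the submitters' processing notes. The sources used here name no RMA version. That normalization hides a shift of total RNA, and single-array detection calls were not used here. The precision is limited by the 3 arrays per group.

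Of 24128 deposited probe sets, 112 controls were left out and 24016 tested. Symbols came from the platform annotation, updated by gene identifier through a RefSeq table of ARS-UCD2.0. 13292 probe sets had 1 symbol, 86 several and 10638 none, and these gave 9155 genes, each read from the probe set whose mean over the arrays was highest. The model had 3 groups and no block, and used lmFit and eBayes of limma 3.58.1 in R 4.3.3. Benjamini-Hochberg adjustment ran over the 24016 probe sets of each comparison, and genes under 0.05 were called. The code was tested on simulated data. Tables were made in Python 3.11.15 with pandas 2.3.3.

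The labels number the donors, so arrays with 1 number came from 1 calf. Deviations from group means correlated from 0.108 to 0.412 between 9 pairs of arrays of the same donor, and from -0.30 to 0.152 between those of different donors. The value of 0.412 was that of the 2 arrays with low hybridisation controls, where a shared donor and a shared array property cannot be told apart. Deviations cancel within a group, so the values of different donors are not independent of those of the same donor. The members, gene lists and tests were chosen with earlier results of these data known. Array values are printed for the 3 members of smallest p between chondrocytes and day 28 MSCs in each role of 5 or more members, for all members of shorter roles, and for members that passed against the majority of a comparison. Of each further list, the 2 genes of smallest p per comparison are named. The CDC45 values per array, the array values of CDKN1A, CCNB1 and AURKB, and the remaining member values were added after they had been seen. Alternatives covered scaling, filters, choice of probe set, donor block, arrays and donors left out, fits of 2 groups and the variance model.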

Additional observations from a re-analysis of the deposited data

How the results depend on the processing

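The range over single arrays or donors left out was, between chondrocytes and day 28 MSCs, 18 to 30 genes called and 18 to 30 higher (30 with all arrays), 0 to 1 lower (0) and a median of 0.87 to 1.15. Between day 28 and day 0 MSCs it was 15 to 25 called (23), 0 to 5 higher (5), 14 to 20 lower (18) and a median of -0.49 to -0.29. Between chondrocytes and day 0 MSCs it was 10 to 29 called (26), 10 to 28 higher (25), 0 to 1 lower (1) and a median of 0.47 to 0.62. Fewer arrays enter these fits.

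ORC3 became a lower gene between the day 28 groups with arrays centred on their medians, with a filter at the median signal and over the mean of probe sets, and ORC3 or ORC4 did so with 1 array left out. Centring on array medians left 3 higher genes between the MSC groups. Between chondrocytes and day 0 MSCs, centring on ribosomal protein genes left 0 lower and 34 higher genes and a median of 0.75, centring on array medians 17 higher and 0.43, cyclic loess 0.64 and the mean of probe sets 0.47. Ribosomal centring moved the median of all probe sets to 0.12 there, against -0.07, and to 0.14, against -0.03, between the day 28 groups. RFC5 turned to -0.43 (adjusted p = 0.138) between chondrocytes and day 0 MSCs when read from its probe set of largest SD. A fit of 2 groups alone ended the calls of ORC1, CDC45 and POLA2 between the day 28 groups. Between the MSC groups it ended those of RPA1 (0.0534) and CHAF1A (0.0663), and ORC1 gained 1. Between chondrocytes and day 0 MSCs it ended that of E2F1 (0.0592), and POLE3 gained 1. Trended and robust variance ended the calls of CHAF1A between the MSC groups (0.0643), where MCM7 and RFC5 gained 1. It ended that of POLD1 between chondrocytes and day 0 MSCs (0.0659), where POLE3 gained 1. The cause of these changes was not tested.

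With the donor as a replicate block, 31, 25 and 28 genes were called in the 3 comparisons in that order. PRIM1 lost its call (0.0584) between the MSC groups, and SLBP, MCM7, POLA1, PCNA and MCM6 gained 1 or more, with no other call changed. Of 23 alternatives, 16 of 30, 13 of 23 and 8 of 26 called genes passed in each that gave them a value. Filters on dim probe sets left ORC1 with 21 and GINS4, PRIM1, CHAF1B and E2F1 with 22.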
